A study of Mus musculus with 13 samples.

Results

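The genes described here encode subunits of the receptors for glutamate, GABA and glycine, the main fast transmitters of the brain. A list of 37 genes was matched to the array's probes by the gene symbol that the platform annotation gives. Of the 37, 34 had at least 1 probe, and 26 had a probe above background on at least 3 of the 13 arrays and were tested. The whole array held 18524 genes with a named probe, of which 11927 were tested. The arrays came from 4 groups of mouse brain. The groups were Nestin tumor and Nestin control, with 3 arrays each, and NG2 tumor and NG2 control, with 4 and 3. Nestin tumors were high-grade gliomas of a model in which Nestin-creERT2, a tamoxifen-activated Cre recombinase under sequences of the nestin gene, deleted tumor suppressor genes. In NG2 tumors the deletions came from NG2-creERTM, a tamoxifen-activated Cre under sequences of the NG2 gene. The labels name neither the deleted genes nor the controls' alleles, age or tamoxifen treatment, and 1 further NG2 tumor of the study was not analysed here. Nestin marks neural stem and progenitor cells, and NG2 marks oligodendrocyte progenitors and also pericytes, so neither driver is limited to 1 cell type. Tumor pieces were taken from mice with neurological signs and control pieces from the matching position in control brain. Each array held RNA of 1 tissue piece with all its cell types. The labels call the tumors independent and the controls biological replicates, and p-values measure the spread between these samples.

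Glutamate opens AMPA, NMDA and kainate receptors, which are cation channels of several subunits, and acts more slowly through metabotropic receptors that couple to G proteins. GABA and glycine open chloride channels of several subunits, and GABA also acts on GABA-B receptors, a pair of G protein-coupled subunits. Neurons carry most of these receptors, but oligodendrocyte progenitors and astrocytes carry some, and glioma cells of other studies have been found to hold glutamate receptors. A level below is a normalized log2 intensity of the brightest kept probe of a gene, the lowest level above background was 5.29 to 5.53 log2 depending on the array, and levels of different genes cannot be compared because probes differ in brightness. A gene passed the test when its adjusted p was below 0.05.

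Promoter windows of the members differed in base content, from 0 CG pairs in Gabra3 to 50 in Grik3. The RefSeq promoter table (build GRCm38.p6) held 34 windows of 300 bases for 27 of the 37 members, each from 250 bases before to 50 bases after a transcription start. The core of the site of REST, a repressor of neuronal genes outside neurons, was searched on both strands as AGCACC, any 2 bases and GGACAG. These letters occurred in 17 of 32851 windows in all (0.0517%) and in 1 member window, that of Gria2 on the minus strand at chr3:80802786-80803085. There the match lay on the opposite strand of the window and its first base stood at -170 from the start. The median number of CG pairs was 12.5 in member windows and 7 in all windows. A match describes letters and is not a measured site. The Gria2 window is shown for this match, with the matching letters in capitals. Glra2 and Gabrg1 are shown because their tumor changes differed between the models, as described further on, with CG pairs in capitals. The Glra2 window (chrX:165327344-165327643, minus strand) had 9 CG pairs, the Gabrg1 window (chr5:70842568-70842867, minus strand) had 3 and the Gria2 window 26.
Gria2: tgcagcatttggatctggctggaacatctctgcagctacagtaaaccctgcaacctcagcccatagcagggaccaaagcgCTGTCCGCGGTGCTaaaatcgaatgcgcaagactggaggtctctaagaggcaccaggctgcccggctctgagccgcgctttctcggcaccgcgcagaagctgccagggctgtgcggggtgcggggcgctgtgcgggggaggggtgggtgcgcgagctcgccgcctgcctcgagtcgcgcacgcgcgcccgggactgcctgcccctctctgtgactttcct
Glra2: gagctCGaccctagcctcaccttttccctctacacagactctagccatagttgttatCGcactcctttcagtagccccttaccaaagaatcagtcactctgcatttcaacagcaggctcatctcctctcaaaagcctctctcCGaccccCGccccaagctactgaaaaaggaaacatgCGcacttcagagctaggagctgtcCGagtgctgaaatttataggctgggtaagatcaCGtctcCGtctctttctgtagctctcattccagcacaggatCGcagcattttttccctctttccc
Gabrg1: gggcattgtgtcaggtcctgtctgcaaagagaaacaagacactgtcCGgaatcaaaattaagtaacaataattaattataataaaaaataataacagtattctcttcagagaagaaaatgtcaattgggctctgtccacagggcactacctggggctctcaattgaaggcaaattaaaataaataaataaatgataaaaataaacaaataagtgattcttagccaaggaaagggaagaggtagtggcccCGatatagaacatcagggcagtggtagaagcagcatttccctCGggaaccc

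Most measured subunits were lower in the tumors of both models, and none of the 26 passed the test as higher in either. In Nestin tumors 17 of 26 fell and 9 did not pass, where 46.3% of all genes tested passed, 21.9% lower and 24.4% higher. The median change of the members was -1.48 log2, and that of all genes was 0.06. In NG2 tumors 19 of 26 fell and 7 did not pass, where 50.7% of all genes passed, 24.1% lower and 26.6% higher, with a median of -1.81 for members and 0.09 for all genes. The 15 members that fell in both models were Gria1, Gria2, Grin2b, Grik2, Grik5, Grm7, Grm8, Gabra3, Gabrb1, Gabrb2, Gabrg3, Gabrd, Gabbr1, Gabbr2 and Glrb. Grik1, Grm5, Gabrg1 and Glra2 passed in NG2 tumors alone, Gria3 and Grin2a in Nestin tumors alone, and Gria4, Grin2c, Grin3a, Grik3 and Grik4 in neither. The groups did not overlap for 15 members lower in Nestin tumors (27.8% of all genes) and 1 higher, Gabrg1 (31.1% of all genes were higher in this way). In NG2 tumors 22 members were lower with no overlap (24.3% of all genes) and 0 higher. The members that passed the filter on low values were 26 of 37, so these counts do not cover the list. Of the 26, 6 were above background on too few tumors to pass the filter without the controls (Grin2a, Grik3, Grm8, Gabrg3, Gabrd and Gabbr2), and 5 of these 6 are among the falls in Nestin tumors and 4 in NG2 tumors. In whole tissue, fewer cells of a type and less RNA per cell cannot be told apart.

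**Figure D1:**
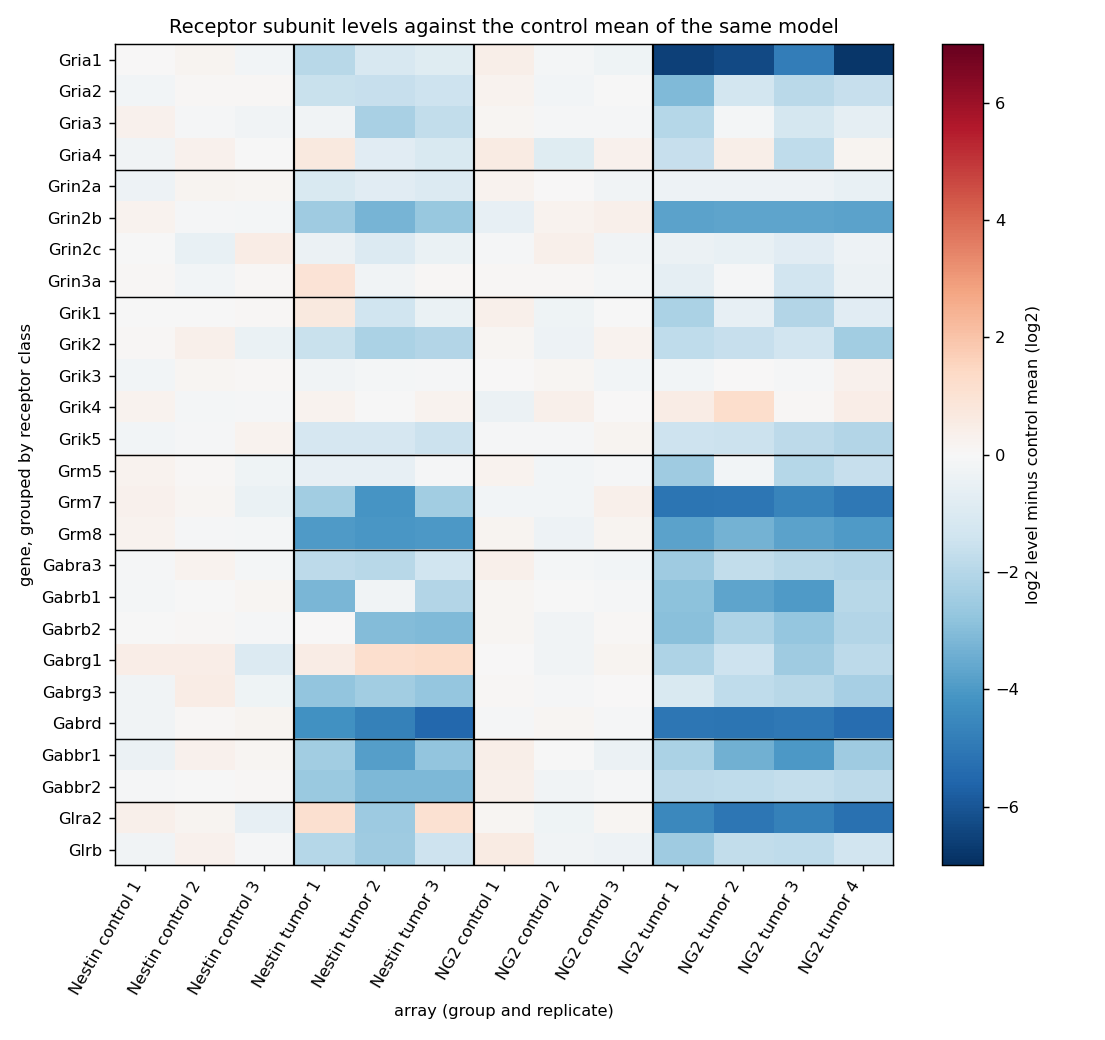
Colour shows, for each of the 26 tested genes (rows, grouped by receptor class) on each of the 13 arrays (columns), the log2 level minus the mean of the control group of the same model, from -7 (blue) to 7 (red). Tumor columns are mostly blue, Gria1 and Glra2 are far darker in NG2 tumors than in Nestin tumors, and Grik3, Grik4 and Grin3a stay pale.

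Markers of several cell types moved with these changes. For the counts below, 24.4% of all genes rose and 21.9% fell in Nestin tumors, and 26.6% rose and 24.1% fell in NG2 tumors. The neuron list (7 of its 10 genes tested) had a mean level of 11.88 to 12.08 log2 on Nestin controls and 9.0 to 10.09 on Nestin tumors, and 6 of the 7 genes fell. On NG2 controls it was 11.76 to 11.87 and on NG2 tumors 7.78 to 8.53, and again 6 of the 7 fell. The control ranges show that the control pieces held neuronal RNA. Oligodendrocyte progenitor markers (10 of 10 tested) had mean levels of 8.39 to 8.73 on Nestin controls and 9.20 to 10.78 on Nestin tumors, and of 8.43 to 8.58 on NG2 controls and 10.35 to 11.36 on NG2 tumors, with 7 rises in the Nestin and 10 in the NG2 comparison. Mature oligodendrocyte markers (7 of 8 tested) had mean levels of 12.32 to 12.99 on Nestin controls, 9.34 to 10.33 on Nestin tumors, 11.46 to 11.92 on NG2 controls and 8.87 to 10.51 on NG2 tumors. All 7 fell in Nestin tumors, while in NG2 tumors 5 fell, 1 rose and 1 did not pass. Astrocyte markers (8 tested) had 10.28 to 10.50, 9.72 to 11.04, 10.51 to 10.73 and 9.01 to 9.85 in the same order, with 2 falls in Nestin and 6 in NG2 tumors and 1 rise in each. The part of these shifts in the receptor changes was not tested. The arrays came on 3 slides. Replicates 1 and 2 of both Nestin groups shared slide 1, and all NG2 arrays but the third control were on slide 2. The third replicates of the Nestin groups were on slide 3 together with that NG2 control. Every tumor therefore had a control of its model on its slide, and tumors of different models never shared one.

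AMPA receptors carry most of the fast excitatory current, and all 4 subunit genes were tested. Of the 4, 3 fell in Nestin tumors and 2 in NG2 tumors, where 21.9% and 24.1% of all genes fell. Gria1 measured 12.63, 12.78 and 12.41 log2 in Nestin controls, 10.66, 11.49 and 11.77 in Nestin tumors, 13.50, 12.95 and 12.77 in NG2 controls and 6.51, 6.77, 8.26 and 6.25 in NG2 tumors. Every NG2 tumor lay far below every NG2 control, while the Nestin tumors lay just below their controls with no overlap. Gria1, which encodes GluA1, a subunit inserted into synapses during potentiation, fell by 6.13 ± 0.41 log2 (adjusted p = 4.71e-08) in NG2 tumors, a 69.9-fold difference. In Nestin tumors it fell by 1.30 ± 0.44 log2 (adjusted p = 0.0251), or 2.46-fold, and this did not pass without Nestin tumor 1 (-0.97), Nestin control 1 (-1.29) or Nestin control 2 (-1.21), or with median scaling (-0.83). All 4 kept Gria1 probes fell in both comparisons, with changes from -6.35 to -5.59 log2 in NG2 tumors.

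Gria2 measured 12.73, 13.03 and 13.02 log2 in Nestin controls, 11.35, 11.31 and 11.45 in Nestin tumors, 13.32, 12.89 and 13.04 in NG2 controls and 10.01, 11.80, 11.20 and 11.49 in NG2 tumors. All 7 tumors lay below all 6 controls, with NG2 tumor 1 the lowest. Gria2 encodes GluA2, whose edited form keeps calcium out of the AMPA channel, and its promoter window is the one printed above with the REST letters. It fell by 1.56 ± 0.34 log2 (adjusted p = 0.0019) in Nestin tumors and fell by 1.96 ± 0.32 log2 (adjusted p = 0.000159) in NG2 tumors, and all 3 of its kept probes fell in both. Gria3 measured 11.05, 10.66 and 10.45 log2 in Nestin controls, 10.48, 8.48 and 9.0 in Nestin tumors, 11, 10.76 and 10.78 in NG2 controls and 8.86, 10.69, 9.61 and 10.20 in NG2 tumors. Nestin tumor 1 and NG2 tumor 2 reached the control range or its edge, and the other tumors lay lower. Gria3, for GluA3, fell by 1.40 ± 0.48 log2 (adjusted p = 0.028) in Nestin tumors and differed by -1.01 ± 0.45 log2 (adjusted p = 0.0768) in NG2 tumors. The Nestin fall did not pass without Nestin tumor 2 (-0.98), Nestin tumor 3 (-1.24), Nestin control 1 (-1.24) or Nestin control 2 (-1.43), nor with median scaling (-0.84) or the mean of the probes (-1.08), and the NG2 value passed without NG2 tumor 2 (-1.29) or Nestin tumor 1 (-1.01). Of the 4 kept Gria3 probes 2 fell in Nestin tumors, and in NG2 tumors the 4 ran from -1.01 to 0.27 with none past the threshold. Gria4, for GluA4, passed in neither model, at -0.40 ± 0.61 log2 (adjusted p = 0.629) and -0.70 ± 0.57 log2 (adjusted p = 0.328). Its levels were 6.30, 4.83 and 4.54 log2 over the Nestin tumors and 4.96, 7.01, 4.82 and 6.78 over the NG2 tumors, so that 2 tumors of each model lay at background and the others did not.

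NMDA receptors pair the obligatory subunit GluN1 with GluN2 or GluN3 subunits. Grin1, for GluN1, had no named probe, and Grin2d was above background on 0 arrays, so 4 of 6 genes were tested. Grin2b measured 8.93, 8.60 and 8.53 log2 in Nestin controls, 6.20, 5.42 and 6.0 in Nestin tumors, 8.54, 9.36 and 9.49 in NG2 controls and 5.36, 5.44, 5.43 and 5.39 in NG2 tumors. The tumors of both models lay below all controls, and in NG2 tumors 1 of 4 arrays was above background. Grin2b, for the GluN2B subunit abundant in young synapses, fell by 2.81 ± 0.29 log2 (adjusted p = 4.66e-06) in Nestin tumors and fell by 3.73 ± 0.27 log2 (adjusted p = 1.05e-07) as fitted in NG2 tumors. Grin2a measured 5.59, 6.15 and 6.10 log2 in Nestin controls, 4.90, 5.13 and 4.97 in Nestin tumors, 5.54, 5.30 and 5.03 in NG2 controls and 4.95, 4.95, 4.94 and 4.75 in NG2 tumors. Grin2a, for GluN2A, which joins synapses as they mature, entered the test through controls alone and could differ only as lower. It was above background on all 3 Nestin controls and on 0 of 3 Nestin tumors and was at least 1.45-fold lower there (adjusted p = 0.00136). NG2 controls were themselves near background for Grin2a, with 1 of 3 arrays above it, and the NG2 difference was -0.39 ± 0.18 log2 (adjusted p = 0.0878), which passed with cyclic loess (-0.43) and median scaling (-0.41).

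The other NMDA receptor genes did not pass in either tumor comparison. Grin3a measured 11.37, 11.08 and 11.37 log2 in Nestin controls, 12.24, 11.02 and 11.34 in Nestin tumors, 11.82, 11.78 and 11.57 in NG2 controls and 11.09, 11.66, 10.38 and 11.31 in NG2 tumors. Nestin tumor 1 was the highest and NG2 tumor 3 the lowest of all arrays, and the tumor and control ranges overlapped in both models. Grin3a, for GluN3A, a subunit that lowers calcium entry and is prominent early in life, differed by 0.26 ± 0.32 log2 (adjusted p = 0.543) in Nestin tumors, with a 95% interval of -0.44 to 0.95. In NG2 tumors it differed by -0.61 ± 0.30 log2 (adjusted p = 0.107), with an interval of -1.26 to 0.04, and this passed as lower without NG2 tumor 2 (-0.80). Grin2c, for GluN2C, a subunit of cerebellar granule cells and some glia, measured 6.08, 5.58 and 6.59 log2 in Nestin controls and 5.70, 5.14 and 5.62 in Nestin tumors. It measured 6.43, 6.84 and 6.23 in NG2 controls and 6.09, 6.01, 5.71 and 6.12 in NG2 tumors. Every NG2 tumor lay below every NG2 control, but the differences of -0.60 ± 0.28 log2 (adjusted p = 0.0917) and -0.52 ± 0.26 log2 (adjusted p = 0.109) did not pass. Without Nestin control 2 the Nestin value passed (-0.86).

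Kainate receptors modulate transmission on both sides of the synapse, and all 5 genes were tested. Of the 5, 2 fell in Nestin tumors and 3 in NG2 tumors, where 21.9% and 24.1% of all genes fell. Grik2 measured 8.93, 9.17 and 8.38 log2 in Nestin controls, 7.28, 6.62 and 6.78 in Nestin tumors, 9.32, 8.81 and 9.40 in NG2 controls and 7.38, 7.57, 7.84 and 6.76 in NG2 tumors. Grik5 measured 9.38, 9.45 and 9.80 log2 in Nestin controls, 8.36, 8.38 and 8.04 in Nestin tumors, 9.30, 9.27 and 9.54 in NG2 controls and 7.91, 7.86, 7.56 and 7.30 in NG2 tumors. For both genes all tumors lay below all controls. Grik2, for the principal subunit GluK2, fell by 1.93 ± 0.32 log2 (adjusted p = 0.000279) in Nestin tumors and fell by 1.79 ± 0.30 log2 (adjusted p = 0.000235) in NG2 tumors. A second, dimmer Grik2 probe fell by 0.57 log2 in Nestin tumors and differed by -0.02 in NG2 tumors, where it did not pass. Grik5, for GluK5, which also needs a principal subunit, fell by 1.28 ± 0.24 log2 (adjusted p = 0.00057) and fell by 1.71 ± 0.22 log2 (adjusted p = 2.26e-05). Grik1 measured 9.15, 9.17 and 9.29 log2 in Nestin controls, 9.87, 7.79 and 8.71 in Nestin tumors, 9.64, 9.0 and 9.28 in NG2 controls and 7.07, 8.74, 7.26 and 8.52 in NG2 tumors. NG2 tumors 1 and 3 stood well below the controls, NG2 tumors 2 and 4 just below, and Nestin tumors lay on both sides of their controls. Grik1, for GluK1, fell by 1.41 ± 0.47 log2 (adjusted p = 0.0231) in NG2 tumors, a call lost on leaving out NG2 tumor 1 (-1.13) or 3 (-1.20) or NG2 control 1 (-1.25) or 3 (-1.42), and with the slide as a block (-1.42), median scaling (-0.83) or the mean of the probes (-0.87). In Nestin tumors it differed by -0.41 ± 0.51 log2 (adjusted p = 0.536), where its second kept probe had the opposite sign (0.57, not passed).

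Grik3 and Grik4 passed in neither model. Grik4 measured 7.09, 6.67 and 6.72 log2 in Nestin controls, 7.04, 6.82 and 7.05 in Nestin tumors, 5.38, 6.12 and 5.81 in NG2 controls and 6.31, 7.03, 5.87 and 6.24 in NG2 tumors. Nestin tumors lay within the range of their controls, and NG2 tumors 1, 2 and 4 lay above all NG2 controls. Grik4, for GluK4, which works only with a principal subunit, differed by 0.15 ± 0.29 log2 (adjusted p = 0.705) in Nestin tumors, with a 95% interval of -0.48 to 0.78, and by 0.59 ± 0.28 log2 (adjusted p = 0.0871) in NG2 tumors. The NG2 interval before adjustment was 0.00 to 1.19, and the NG2 value passed as higher without NG2 tumor 3 (0.75) and with arrays scaled to their median (0.82). Grik3, for GluK3, lay close to background in all groups, with means of 5.33 ± 0.18 (SD, n = 3) in Nestin controls, 5.16 ± 0.09 (n = 3) in Nestin tumors, 5.41 ± 0.15 (n = 3) in NG2 controls and 5.43 ± 0.19 (n = 4) in NG2 tumors. Its signal exceeded background on 4 of 13 arrays, and a change could not be resolved at this signal (-0.17 ± 0.18 log2 (adjusted p = 0.464) and 0.02 ± 0.17 log2 (adjusted p = 0.926)).

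**Figure D2:**
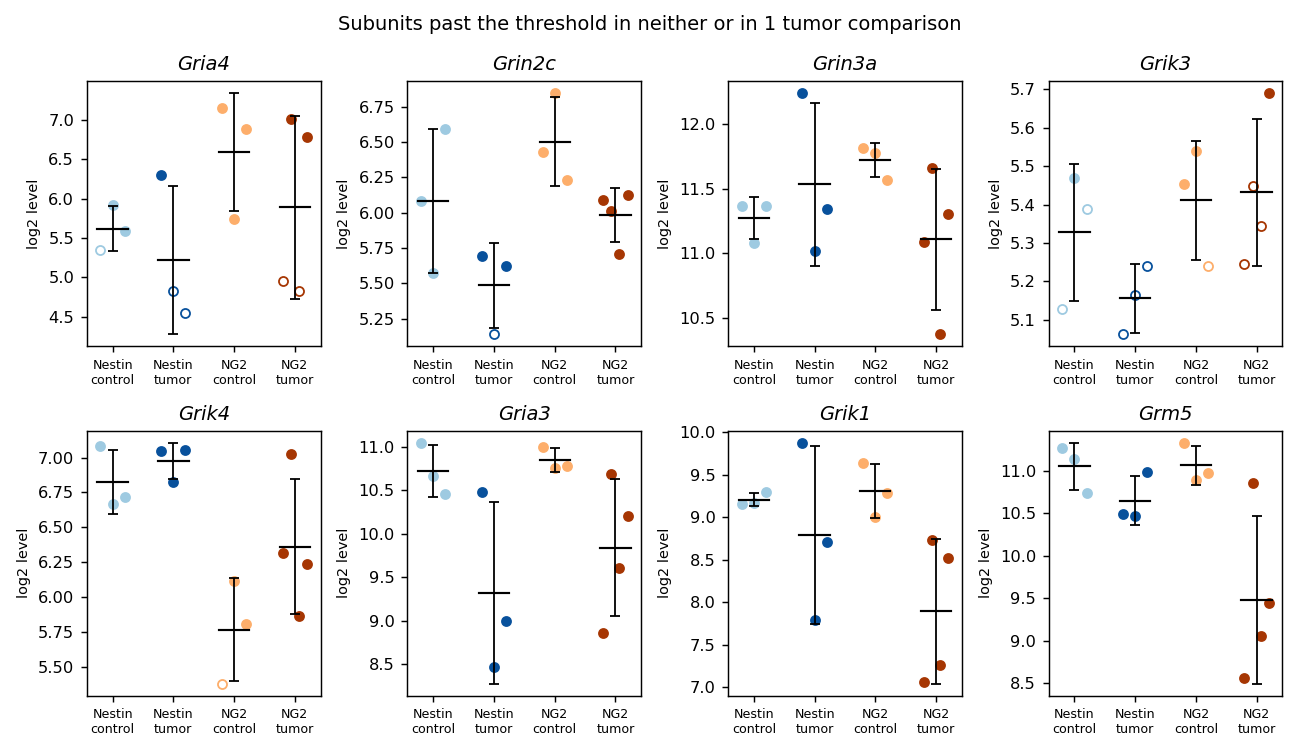
Points are log2 levels of single arrays in the 4 groups (x axis) for 8 subunit genes that passed in 1 tumor comparison or in neither; filled points are above background, open points are not, and bars show the mean and SD. Grik4 and Grin3a tumors overlap or exceed control levels, whereas Grik1 and Grm5 are lower in NG2 tumors. Vertical axes differ between genes and do not start at 0.

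Metabotropic glutamate receptors act through G proteins, and 3 of 6 genes were tested. Grm2 had no named probe, Grm3 was above background on 0 arrays, and Grm4 only on 2 NG2 controls. Grm8 measured 8.97, 8.62 and 8.60 log2 in Nestin controls, 4.77, 4.67 and 4.74 in Nestin tumors, 8.68, 8.16 and 8.69 in NG2 controls and 4.76, 5.18, 4.74 and 4.57 in NG2 tumors. All 7 tumors sat at background and all 6 controls lay clearly above it, so the gene entered the test through controls alone and could differ only as lower. Grm8, for mGlu8, an inhibitory receptor of nerve terminals, was at least 10-fold lower in Nestin tumors (adjusted p = 3.53e-08) and at least 8.27-fold lower in NG2 tumors (adjusted p = 1.87e-08). Grm7 measured 10.37, 10.23 and 9.62 log2 in Nestin controls, 7.62, 5.94 and 7.64 in Nestin tumors, 9.85, 9.86 and 10.37 in NG2 controls and 4.90, 4.97, 5.38 and 5.04 in NG2 tumors. NG2 tumors reached background on this probe, with a dimmer probe above it on 1 of 4, while Nestin tumors kept a level between NG2 tumors and controls, with Nestin tumor 2 the lowest. Grm7, for mGlu7, which also curbs release at nerve terminals, fell by 3.01 ± 0.40 log2 (adjusted p = 4.43e-05) in Nestin tumors and fell by 4.95 ± 0.38 log2 (adjusted p = 1.56e-07) as fitted in NG2 tumors, where the probe used gives a fold of at least 23.7, and all 3 of its kept probes fell in both. Grm5 measured 11.27, 11.14 and 10.74 log2 in Nestin controls, 10.49, 10.47 and 10.98 in Nestin tumors, 11.33, 10.89 and 10.97 in NG2 controls and 8.57, 10.86, 9.05 and 9.45 in NG2 tumors. NG2 tumor 2 lay just under its controls, the other NG2 tumors far lower, and Nestin tumors overlapped their controls. Grm5, for mGlu5, a receptor of postsynaptic neurons and astrocytes that raises calcium, fell by 1.58 ± 0.40 log2 (adjusted p = 0.00482) in NG2 tumors and differed by -0.40 ± 0.43 log2 (adjusted p = 0.475) in Nestin tumors. With arrays scaled to their median the NG2 fall did not pass (-0.99). Of the 3 kept Grm5 probes 2 fell in NG2 tumors, and the other differed by -1.14 log2 and did not pass.

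GABA-A receptors are the chloride channels of fast inhibition, and 6 of 10 genes were tested. Gabra2 had no named probe, Gabra5 and Gabra6 were above background on 0 arrays, and Gabra4 on 1. Of the 6, 5 fell in Nestin tumors and 6 in NG2 tumors, where 21.9% and 24.1% of all genes fell. Gabrd measured 10.39, 10.71 and 10.84 log2 in Nestin controls, 6.42, 5.89 and 5.16 in Nestin tumors, 10.31, 10.49 and 10.29 in NG2 controls and 5.29, 5.24, 5.38 and 5.05 in NG2 tumors. Controls and tumors were far apart in both models, and no NG2 tumor was above background. Gabrd, for the delta subunit of receptors outside synapses, fell by 4.82 ± 0.29 log2 (adjusted p = 4.27e-08) in Nestin tumors and was at least 30-fold lower in NG2 tumors (adjusted p = 5.87e-09). Gabra3 measured 9.90, 10.21 and 9.87 log2 in Nestin controls, 8.19, 8.04 and 8.59 in Nestin tumors, 9.89, 9.42 and 9.34 in NG2 controls and 7.06, 7.85, 7.63 and 7.49 in NG2 tumors. Gabra3, for an alpha subunit, fell by 1.72 ± 0.26 log2 (adjusted p = 0.000134) and fell by 2.04 ± 0.25 log2 (adjusted p = 1.21e-05), with no overlap in either model. Gabrg3 measured 7.27, 8.03 and 7.22 log2 in Nestin controls, 4.77, 5.06 and 4.78 in Nestin tumors, 7.30, 7.17 and 7.26 in NG2 controls and 6.17, 5.46, 5.30 and 4.90 in NG2 tumors. Gabrg3, for a gamma subunit, was above background on 0 of 3 Nestin tumors and at least 4.28-fold lower there (adjusted p = 1.43e-05). It fell by 1.78 ± 0.29 log2 (adjusted p = 0.00016) as fitted in NG2 tumors, of which only NG2 tumor 1 kept a signal above background.

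Both beta subunit genes varied widely among tumors. Gabrb1 measured 10.79, 10.86 and 11.06 log2 in Nestin controls, 7.68, 10.67 and 8.85 in Nestin tumors, 10.57, 10.41 and 10.34 in NG2 controls and 7.56, 6.78, 6.50 and 8.52 in NG2 tumors. Nestin tumor 2 sat just below the control range and Nestin tumor 1 far below it. Gabrb1, for the beta 1 subunit, fell by 3.10 ± 0.57 log2 (adjusted p = 0.00047) in NG2 tumors. In Nestin tumors it fell by 1.84 ± 0.61 log2 (adjusted p = 0.0242), which did not pass without Nestin tumor 1 (-1.14), Nestin tumor 3 (-1.73), Nestin control 1 (-1.89), Nestin control 2 (-1.86) or Nestin control 3 (-1.76), or with median scaling (-1.32). A second Gabrb1 probe differed by -1.59 log2 in Nestin tumors and did not pass. Gabrb2 measured 8.18, 8.31 and 8.16 log2 in Nestin controls, 8.24, 5.21 and 5.14 in Nestin tumors, 8.10, 7.72 and 8.02 in NG2 controls and 5.05, 5.77, 5.26 and 5.87 in NG2 tumors. Here Nestin tumor 1 lay within the control range while Nestin tumors 2 and 3 were at background, the opposite order to Gabrb1 for tumors 1 and 2. Gabrb2, for the beta 2 subunit of the most common adult receptor, fell by 2.02 ± 0.61 log2 (adjusted p = 0.0141) in Nestin tumors and fell by 2.46 ± 0.57 log2 (adjusted p = 0.00254) in NG2 tumors, both as fitted. The Nestin value did not pass without Nestin tumor 2 (-1.53) or Nestin tumor 3 (-1.48), or when only the groups compared were fitted (-2.02).

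Gabrg1 was the only tested GABA-A receptor gene that did not fall in Nestin tumors, while it fell with the others in NG2 tumors. Gabrg1 measured 6.50, 6.51 and 5.04 log2 in Nestin controls, 6.54, 7.18 and 7.29 in Nestin tumors, 7.38, 7.09 and 7.56 in NG2 controls and 5.18, 5.90, 4.83 and 5.53 in NG2 tumors. All 3 Nestin tumors lay above all 3 Nestin controls, of which Nestin control 3 was at background, and all 4 NG2 tumors lay below all NG2 controls. Only 1 of the 4 NG2 tumors was above background, so sizes that involve NG2 tumors are as fitted. Gabrg1, for the gamma 1 subunit, fell by 1.99 ± 0.37 log2 (adjusted p = 0.00047) in NG2 tumors and differed by 0.99 ± 0.39 log2 (adjusted p = 0.0523) in Nestin tumors. That Nestin difference passed as higher without Nestin tumor 1 (1.22), Nestin control 1 (1.24), Nestin control 2 (1.25), NG2 tumor 2 (0.98) or NG2 tumor 3 (0.98). It also passed with offset 50 (0.69), no background correction (0.40), median scaling (1.25) and the stricter filter (0.99), and it was 0.36 within slide 1 and 2.25 within slide 3.

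GABA-B receptors need both subunits to reach the surface and signal. Both genes fell in both models, where 21.9% (Nestin) and 24.1% (NG2) of all genes fell. Gabbr1 measured 10.42, 11.12 and 10.97 log2 in Nestin controls, 8.42, 6.99 and 8.08 in Nestin tumors, 10.67, 10.23 and 9.81 in NG2 controls and 8.0, 6.87, 6.22 and 7.75 in NG2 tumors. Gabbr2 measured 8.14, 8.17 and 8.31 log2 in Nestin controls, 5.62, 5.05 and 5.08 in Nestin tumors, 6.87, 6.30 and 6.42 in NG2 controls and 4.70, 4.75, 4.84 and 4.67 in NG2 tumors. Tumors lay below controls on every array for both genes, and the Nestin controls were higher for Gabbr2 than the NG2 controls. Gabbr1, for the subunit that binds GABA, fell by 3.01 ± 0.46 log2 (adjusted p = 0.000146) in Nestin tumors and fell by 3.03 ± 0.43 log2 (adjusted p = 5.66e-05) in NG2 tumors. Gabbr2, for the subunit that couples to the G protein, fell by 2.96 ± 0.22 log2 (adjusted p = 2.61e-07) as fitted in Nestin tumors, of which 1 of 3 was above background. Its signal was above background on 0 of 4 NG2 tumors, where it was at least 2.1-fold lower (adjusted p = 8.21e-06).

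Glycine receptors are chloride channels most used in hindbrain and spinal cord, and 2 of 4 genes were tested. Glra1 and Glra3 were above background on 0 arrays. Glrb measured 9.68, 10.25 and 9.86 log2 in Nestin controls, 7.93, 7.42 and 8.49 in Nestin tumors, 10.24, 9.38 and 9.30 in NG2 controls and 7.16, 7.93, 7.86 and 8.29 in NG2 tumors. All tumors lay below all controls. Glrb, for the beta subunit that anchors the receptor to gephyrin, fell by 1.98 ± 0.36 log2 (adjusted p = 0.000496) in Nestin tumors and fell by 1.83 ± 0.33 log2 (adjusted p = 0.000436) in NG2 tumors. Glra2 measured 9.58, 9.41 and 8.67 log2 in Nestin controls, 10.36, 6.66 and 10.30 in Nestin tumors, 9.93, 9.51 and 9.95 in NG2 controls and 5.26, 4.73, 5.08 and 4.59 in NG2 tumors. Nestin tumors 1 and 3 stood above all Nestin controls, Nestin tumor 2 far below them, and every NG2 tumor was at background. Glra2, for the alpha 2 subunit found early in brain development, was at least 20.2-fold lower in NG2 tumors (adjusted p = 4.17e-05) and differed by -0.11 ± 0.72 log2 (adjusted p = 0.916) in Nestin tumors. Without Nestin tumor 2 the Nestin value was 1.11 and passed as higher (adjusted p = 0.0134), and 4 alternatives in all gave a positive value, so that the sign of this difference was not settled. Within slide 1 the Nestin difference was -0.98 and within slide 3 it was 1.63.

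Nestin tumor 2 was the lowest of the 3 Nestin tumors for 16 of the 26 members, and NG2 tumor 2 was the highest of the 4 NG2 tumors for 11 and the lowest for 0. On Nestin tumor 2 the astrocyte list (8 genes) and the microglia and macrophage list (6 tested genes) had mean levels of 11.04 and 10.89 log2, the highest of the 3 Nestin tumors for both lists. Their part in the low values of Glra2 on that array was not tested. The median SD of a member was 0.406 log2 over Nestin tumors and 0.458 over NG2 tumors, against 0.304 and 0.352 for all genes, and 0.230 and 0.275 over the controls of the models, against 0.223 and 0.277 for all genes.

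**Figure D3:**
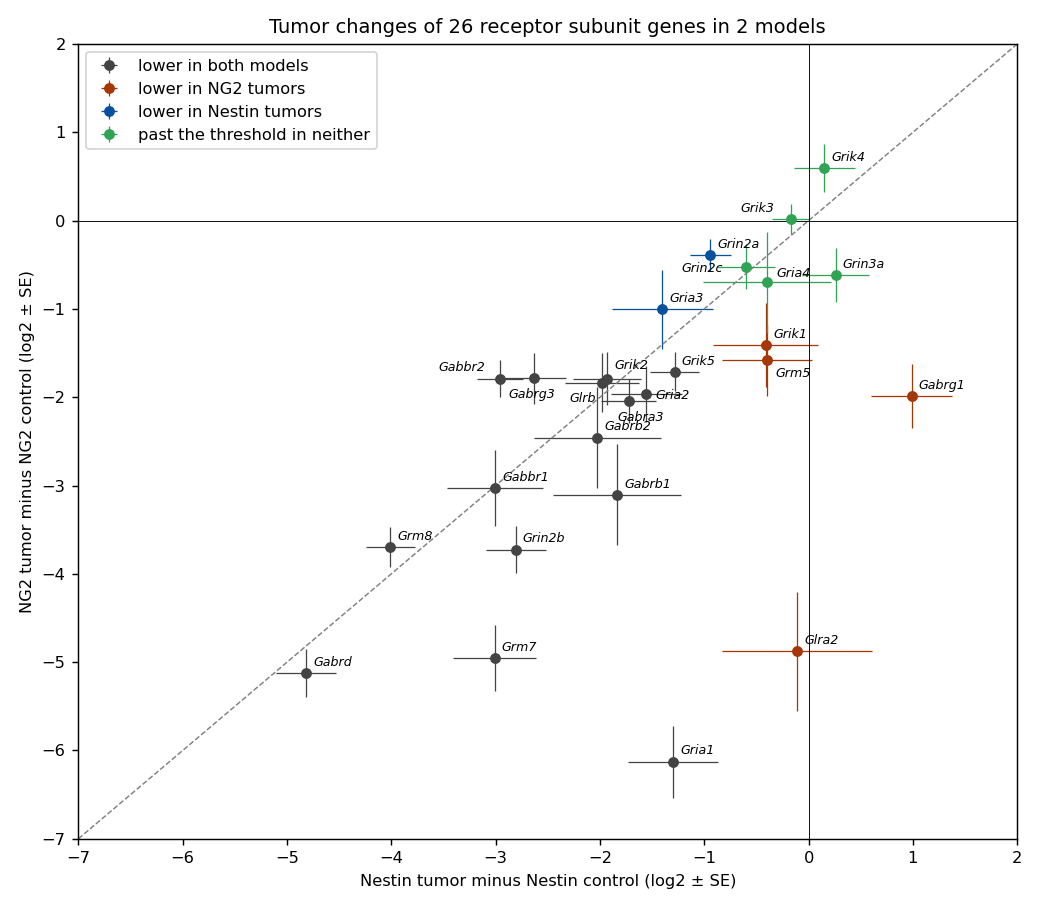
Each point is 1 of 26 genes, with its log2 change in Nestin tumors on the x axis and in NG2 tumors on the y axis; bars are standard errors, the dashed line marks equal change, and genes at background in a group are drawn at fitted values. Most genes lie in the lower left part near the line, while Gria1, Glra2 and Gabrg1 lie far below it.

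When the difference of the tumor effects between the models was itself tested, 4 members passed, where 3.8% of all genes passed, 2.46% with a higher effect in the Nestin model and 1.33% with a lower one. Gria1, Gabrg1 and Glra2 had a higher effect in the Nestin model and Gabbr2 a lower one as fitted. The size for Gabrg1 is also as fitted, since 1 of 4 NG2 tumors and 2 of 3 Nestin controls were above background. The difference of effects, Nestin minus NG2, was 4.83 ± 0.60 log2 (adjusted p = 0.000501) for Gria1 and 2.97 ± 0.54 log2 (adjusted p = 0.00769) for Gabrg1, and both passed under all 23 alternatives run. For Glra2 it was 4.77 ± 0.98 log2 (adjusted p = 0.0171) as fitted, with NG2 tumors at background, and it did not pass with the slide as a block (4.69) or without Nestin control 3 (4.52) or NG2 control 3 (4.70). Gabbr2 differed by -1.17 ± 0.30 log2 (adjusted p = 0.0481) and lost its call in 16 of 23 alternatives. As all 4 NG2 tumors were at background for Gabbr2, its fall there is known only as a lower bound (at least 2.1-fold), and which of its falls was larger is not settled. The other 22 tested members did not pass, among them Grm7 at 1.94 ± 0.55 log2 (adjusted p = 0.0656) as fitted, with its probe at background in NG2 tumors, and Gabbr1 at 0.02 ± 0.63 log2 (adjusted p = 0.988) with a 95% interval of -1.34 to 1.39

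**Figure D4:**
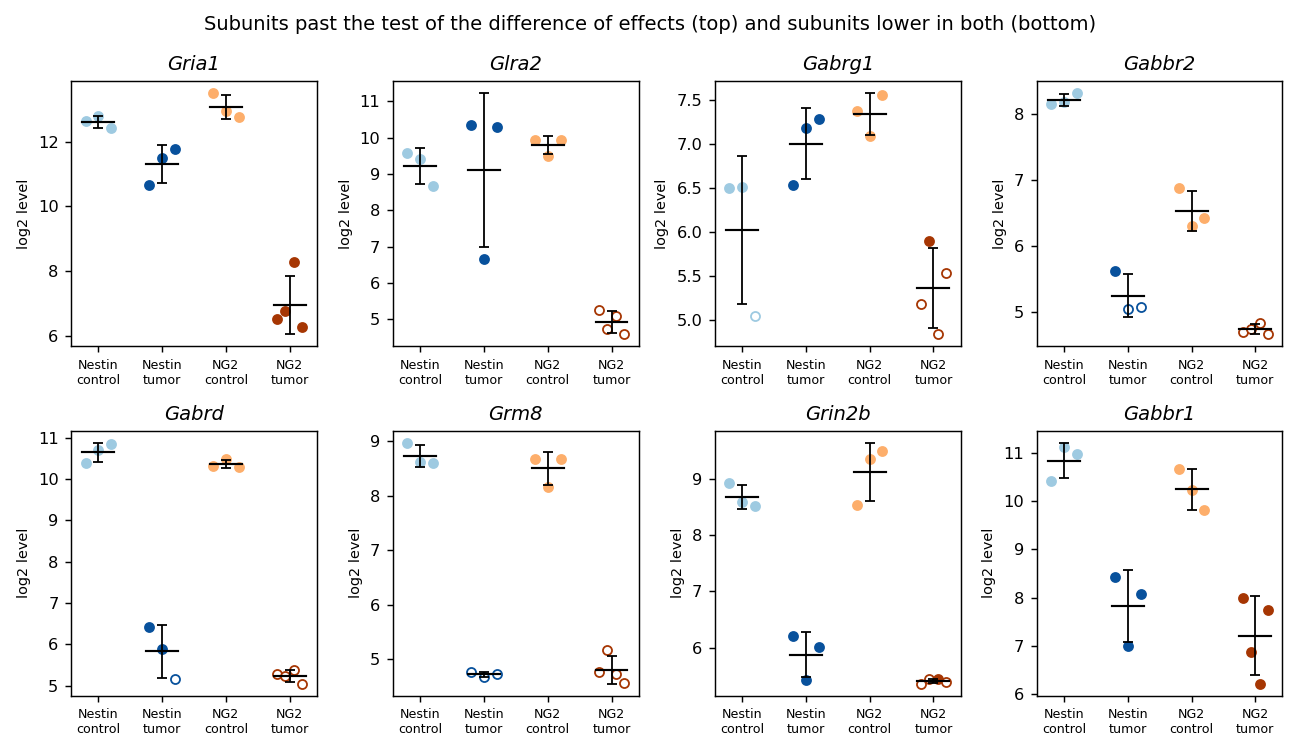
Points are log2 levels of single arrays in the 4 groups (x axis) for the 4 genes that passed the test of the difference of tumor effects (top) and 4 genes lower in both (bottom); filled points are above background, open points are not, bars show the mean and SD, and vertical axes differ and do not start at 0. Gria1 falls less in Nestin tumors than in NG2 tumors, Glra2 is at background in all NG2 tumors and in none of the Nestin tumors, and Gabbr2 controls differ between models.

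Some of these differences include a difference between the control groups. Gabbr2 was higher in Nestin controls than in NG2 controls by 1.68 ± 0.22 log2 (adjusted p = 0.000535), the only member past the threshold there, where 3.47% of all genes passed, 1.69% higher and 1.78% lower. With the slide as a block the control difference was 1.75 and did not pass (adjusted p = 0.0722). Between the tumors Gabbr2 differed by 0.51 ± 0.21 log2 (adjusted p = 0.141), Nestin minus NG2. Gabrg1 differed between the controls by -1.33 ± 0.39 log2 (adjusted p = 0.0956) and between the tumors by 1.65 ± 0.37 log2 (adjusted p = 0.0135), and both steps add to its difference of effects. For Gria1 the controls differed by -0.47 ± 0.44 log2 (adjusted p = 0.757) and for Glra2 by -0.57 ± 0.72 log2 (adjusted p = 0.846). The control pieces also differed in some markers of brain region: dorsal telencephalon genes (4 tested) had a mean level of 10.61 to 11.12 log2 on Nestin controls and 9.15 to 9.36 on NG2 controls. Of these 4 genes, 2 passed as higher in Nestin controls. Cerebellar neuron genes (5 tested) went the other way, at 6.65 to 6.98 and 7.68 to 8.03, and 1 passed as lower. Striatal neuron genes (6 tested) overlapped, at 9.47 to 10.62 and 8.34 to 10.87, and 0 passed. Neuroblast markers (5 of 7 tested) had mean levels of 7.51 to 8.02 on Nestin controls, 8.71 to 9.07 on Nestin tumors, 9.45 to 9.81 on NG2 controls and 6.20 to 8.40 on NG2 tumors. Of the 5, 2 rose and 0 fell in Nestin tumors, and 1 rose and 4 fell in NG2 tumors. The list was mixed, since Sox11 rose in both models (3.56 and 1.74 log2) and Dlx1 differed by -1.99 log2 in Nestin tumors (not passed). The median difference of effects was 3.58 log2 for this list, 1.09 for neuron and 1.06 for astrocyte markers. It was -0.89 for oligodendrocyte progenitor and -0.84 for mature oligodendrocyte markers. The part of brain position and of neuroblast markers in the member differences was not tested.

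Set directly against NG2 tumors, Nestin tumors had 4 members higher and 0 lower, where 8.99% of all genes passed, 5.54% higher and 3.45% lower. Gria1 was higher by 4.36 ± 0.41 log2 (adjusted p = 0.000102), Gabrg1 by 1.65 ± 0.37 log2 as fitted (adjusted p = 0.0135), and Glra2 was at least 12.6-fold higher (adjusted p = 0.00259). Grm7 differed by 1.99 ± 0.38 log2 (adjusted p = 0.00558) as fitted, and on the probe used, at background on all 4 NG2 tumors, it was at least 3.05-fold higher. Tumor groups did not overlap for 7 members higher in Nestin tumors (10% of all genes) and 2 lower (8.64%). No slide held tumors of both models, and with the slide as a block none of the 4 passed and 0 of all genes passed, so slide and tumor model could not be parted in this comparison. Gria1 then differed by 4.95 log2 and Glra2 by 4.28, and the values of Grm7 and Gabrg1 became 1.53 and 0.98. Grm7 (1.99) and Glra2 (4.19) also missed the threshold when the fit held only these 7 arrays, as did Gabrg1 without Nestin tumor 3 (1.48).

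**Figure D5:**
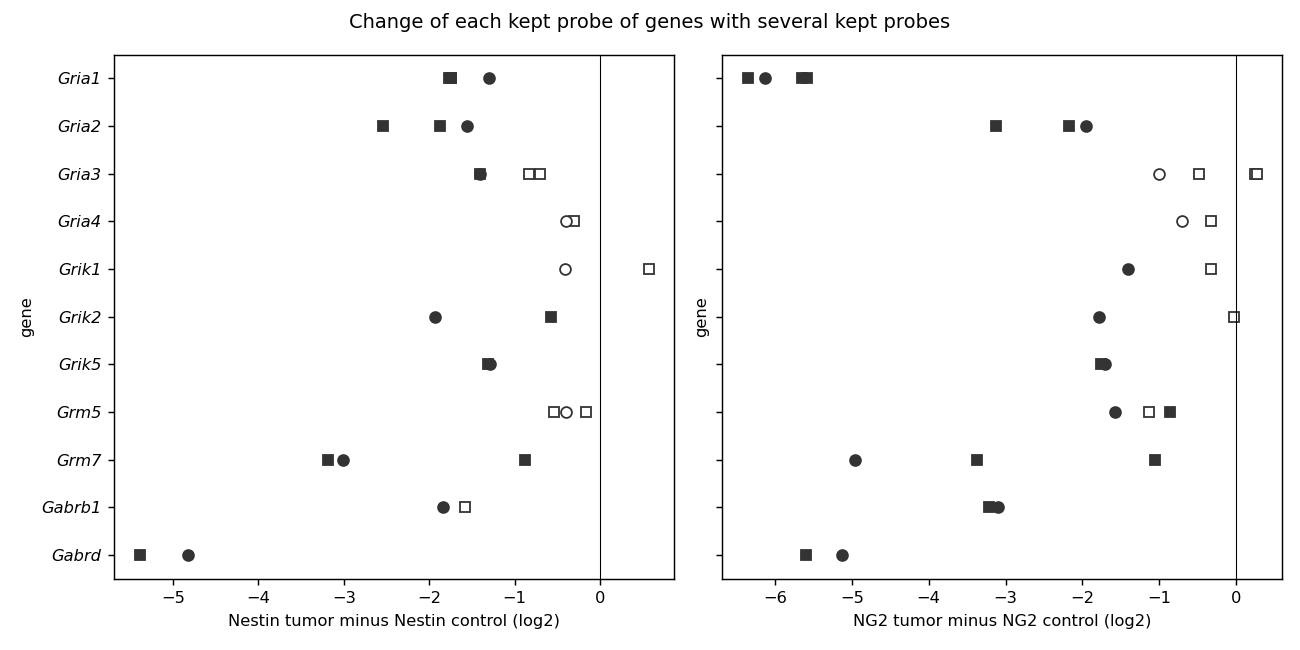
Marks are log2 changes of each kept probe (x axis) for the 11 genes with several kept probes (y axis), in Nestin tumors (left) and NG2 tumors (right); circles are the probes used for the gene, squares the others, and filled marks passed the test. Probes of Gria1, Gria2, Grik5 and Gabrd agree in sign and call, and 1 dim Grik1 probe and 2 Gria3 probes lie on the other side of 0 from the probe used.

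Over all 44 kept probes of members, 28 fell and 0 rose in Nestin tumors, and 30 fell and 0 rose in NG2 tumors. These probes belong to the 26 tested genes, so the counts repeat the gene results and are no separate support. The shares over all 23904 kept probes were not counted. Of the 11 members with several kept probes, Gria3 in the NG2 comparison and Grik1 in the Nestin comparison had probes of opposite sign, and none of those with the opposite sign passed.

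Genes of the same receptors that were not on the list were mostly unmeasured, since 8 of 15 had a probe and 1, Grin3b, was tested. Grin3b measured 4.64, 4.73 and 4.60 log2 in Nestin controls, 5.69, 5.51 and 6.12 in Nestin tumors, 4.79, 4.74 and 4.87 in NG2 controls and 4.75, 4.88, 4.66 and 4.55 in NG2 tumors. All 3 Nestin tumors were above background and no other array was, so the gene entered the test through Nestin tumors alone and could differ only as higher there. Grin3b, for GluN3B, was at least 1.28-fold higher in Nestin tumors than in their controls (adjusted p = 0.00017), at least 1.25-fold higher than in NG2 tumors (adjusted p = 0.00212), and differed by -0.09 ± 0.16 log2 (adjusted p = 0.673) in NG2 tumors. Auxiliary and clustering proteins, which set the gating and position of the receptors, had 17 of 24 genes tested. Of the 17, 2 rose and 11 fell in Nestin tumors, and 1 rose and 12 fell in NG2 tumors, with medians of -1.26 and -1.38 log2. Of all genes tested, 24.4% rose and 21.9% fell in Nestin tumors, and 26.6% rose and 24.1% fell in NG2 tumors. The medians of all genes were 0.06 and 0.09. The rises, named after their values were seen, were of Cacng4, another stargazin relative (1.13 ± 0.41 log2 (adjusted p = 0.0388) and 1.83 ± 0.39 log2 (adjusted p = 0.0014)), and of Neto2, a kainate receptor partner, in Nestin tumors (1.23 ± 0.27 log2 (adjusted p = 0.00202)). In NG2 tumors the Neto2 probe used differed by -0.003 log2, a dimmer Neto2 probe rose by 0.89 and another differed by 0.91 and did not pass. The Neto2 result in NG2 tumors thus depended on the probe. Cacng3, an AMPA receptor partner of the stargazin family, fell by 4.37 ± 0.45 log2 (adjusted p = 4.49e-06) and fell by 4.37 ± 0.42 log2 (adjusted p = 1.38e-06), the latter as fitted. Nptx1 and Nptx2 encode pentraxins that gather AMPA receptors at synapses. Nptx1 fell by 2.69 ± 0.35 log2 (adjusted p = 4.11e-05) and fell by 1.38 ± 0.33 log2 (adjusted p = 0.00337), and Nptx2 fell by 3.59 ± 0.81 log2 (adjusted p = 0.00204) in NG2 tumors and differed by -1.25 ± 0.86 log2 (adjusted p = 0.251) in Nestin tumors.

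Transmitter synthesis and transport genes, with 13 of 17 tested, had 1 rise and 7 falls in Nestin tumors and 0 rises and 10 falls in NG2 tumors. The shares of all genes were 24.4% higher and 21.9% lower in Nestin tumors, and 26.6% higher and 24.1% lower in NG2 tumors. The rise, named after its value was seen, was of Slc6a9, a glycine transporter (0.90 ± 0.29 log2 (adjusted p = 0.0212)). Slc17a7, which loads glutamate into vesicles, fell by 5.46 ± 0.71 log2 (adjusted p = 3.47e-05) in Nestin tumors and fell by 6.21 ± 0.66 log2 (adjusted p = 3.86e-06) in NG2 tumors. Gad2 measured 11.77, 11.96 and 11.78 log2 in Nestin controls, 9.95, 7.46 and 10.14 in Nestin tumors, 12.86, 12.74 and 13.29 in NG2 controls and 6.42, 6.18, 6.50 and 4.71 in NG2 tumors. Slc32a1 measured 12.69, 13.07 and 12.76 log2 in Nestin controls, 11, 8.90 and 11.33 in Nestin tumors, 13.75, 13.71 and 13.77 in NG2 controls and 7.36, 7.83, 8.03 and 5.21 in NG2 tumors. For both genes Nestin tumors 1 and 3 kept levels well above all NG2 tumors, and Nestin tumor 2 was the lowest Nestin tumor, as for Glra2. Gad2, which makes GABA, fell by 2.65 ± 0.60 log2 (adjusted p = 0.00245) and fell by 7.01 ± 0.56 log2 (adjusted p = 2.53e-07), and Slc32a1, which loads GABA and glycine into vesicles, fell by 2.43 ± 0.66 log2 (adjusted p = 0.0083) and fell by 6.63 ± 0.62 log2 (adjusted p = 1.1e-06). The difference of effects was 4.36 ± 0.82 log2 (adjusted p = 0.0104) for Gad2 and 4.20 ± 0.91 log2 (adjusted p = 0.0204) for Slc32a1. These genes of inhibitory neurons moved with the model difference of Glra2, and their part in it was not tested.

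Differences within slides are parts of the differences given above, so they show sizes and are no separate test. Gabrd and Grm8 passed the filter through controls alone and could hardly differ except as lower. Gabrd differed by -4.39 log2 within slide 1, -5.67 within slide 3 and -5.16 within slide 2, which holds the NG2 comparison. Grm8 differed by -4.08, -3.87 and -3.60 in the same order. Gria1 differed by -1.63, -0.64 and -6.28. Slides 1 and 3 gave opposite signs for Grm5 (-0.72 and 0.24), Grin3a (0.40 and -0.03) and Glra2 (-0.98 and 1.63). Slide 3 held 1 Nestin tumor and 1 Nestin control and gives sizes only. The median raw signal of the arrays ran from 116.9 to 209.1, with the tumors brighter than the controls, and 43.46% to 47.52% of probes were above background. With arrays scaled to their median in place of quantile normalization, the median of all genes became 0.45 log2 for the Nestin and 0.47 for the NG2 comparison. The share of rises among all calls then went from 52.6% to 72.9% and from 52.4% to 71.8%, and 14 members fell in Nestin tumors and 18 in NG2 tumors.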

How the data were processed

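RNA of 13 brain or tumor pieces was measured on single-colour Illumina mouse BeadChips, with flash-frozen tissue and a kit for lipid-rich tissue per the labels. The authors deposited non-normalized intensity values of 45281 probes per array, each paired per the file headers with a detection p-value. A processed table by the authors, with 38563 probes, was read as log2 values because of its range. Its lowest correlation with the values computed here was 0.999985, and it served as an alternative, with a method not given in the sources used here.

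Intensities were normalized with neqc of limma 3.58.1 in R 4.3.3 (background from the detection p-values, offset 16, quantile, log2). A probe was kept if its detection p fell under 0.05 on 3 or more arrays (23904 probes, 18876 of them with 1 gene symbol). Of all probes 32093 had 1 symbol, 16 several and 13172 none. The brightest kept probe stood for each of 11927 genes. A single limma model with a mean per group (residual df 9, prior df 4.67, intensity trend) gave 5 contrasts, with Benjamini-Hochberg adjustment over all genes of each, and was checked on simulated data. A gene with no probe above background on any array of a group has a lower bound as its fold: the mean of the brighter group against the dim group's, raised on each array to the lowest level above background (5.29 to 5.53 log2). The number of arrays limits precision.

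The members and gene lists were chosen with earlier results of these data known. All members are named, as are all measured other receptor subunits and the 3 largest changes past the threshold of the lists of auxiliary proteins and of transmitter genes. Marker lists are given by counts and levels. Alternatives covered offset, background, normalization, filter, probe rule, slide, replicate number, the groups fitted and leaving out each array. Same-numbered tumors and controls did not deviate together (r from -0.06 to 0.04 over 6 pairs), and the main model fitted them as unpaired. Such values cannot exclude that some samples were paired. The numbers follow the sample descriptions, and the title letters of the NG2 tumors run in another order. A pairing of NG2 samples by letter was not checked.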

Additional observations from a re-analysis of the deposited data

Results flagged for a closer look

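Of the 26 tested members 4 passed the limma test of the difference of the tumor effects between the 2 models. The difference, Nestin minus NG2, was 4.83 log2 for Gria1, 4.77 for Glra2, 2.97 for Gabrg1 and -1.17 for Gabbr2. The Glra2 and Gabbr2 values are as fitted, with all 4 NG2 tumors at background, and which of the Gabbr2 falls was larger is not settled. The Gabrg1 value is also as fitted, with 1 of 4 NG2 tumors above background. Gria1 was lower than controls on all 3 Nestin and all 4 NG2 tumors, Gabrg1 higher on all 3 Nestin and lower on all 4 NG2 tumors. Glra2 was higher on 2 of 3 Nestin tumors and lower on all 4 NG2 tumors, and Gabbr2 was lower on every tumor. In the screen for single arrays far from their group, Grin2a on NG2 tumor 4 stood low at 4.75 log2, against 4.94 to 4.95 on the other NG2 tumors. All 4 values lie under the level of detection, and chance flags about 1 in 20 such groups, with 26 genes screened in NG2 tumors.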

How the results depend on the processing

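Single members gave 1458 recomputed values under 11 other settings and 13 omissions of an array. Of these, 1386 kept their side of the threshold, 54 lost the call, 17 gained one and 1 reversed. Among the 1386 were 12 values past the threshold in neither setting that changed sign. Of the 17 members that fell in Nestin tumors 13 kept the call throughout, and 17 of 19 in NG2 tumors. Glra2 in Nestin tumors reversed to 1.11 log2 without Nestin tumor 2, over a range of -0.74 to 1.11. A member, Gabrg1, rose in Nestin tumors (1, against 0) with offset 50, no background correction, median scaling and the stricter filter, and 0 to 1 with an array left out. In NG2 tumors 1, Grik4, rose with median scaling, and 0 to 1 with an array left out. Between tumors 0 members were higher with the slide block, 2 when only the groups compared were fitted, and 3 to 7 with an array left out, the 7 without NG2 tumor 2. All genes between tumors numbered 0, 166 and 664 to 1262, against 1072, the fewest without Nestin tumor 3. Between controls 0, 2 and 1 to 2 members were higher, 1 was lower without background correction, and 85, 952 and 187 to 451 genes passed, against 414. The difference of effects lost its lower member, Gabbr2 (0), with cyclic loess, median scaling, no filter, the slide block and the replicate block, and 0 to 1 remained with an array left out. It passed for 184 genes with the slide block and 192 to 635 with an array left out, against 453. With the replicate number as a block, 705 genes passed between tumors and 314 in the difference of effects. Genes near background allow no measured fold, and the causes of these shifts were not tested.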
